A study of Homo sapiens with 3 samples.

Results

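The genes described here are 8 members of the RAS, RAF and MEK signalling chain: the GTPase genes RRAS, RRAS2, MRAS, NRAS and HRAS, the RAF kinase genes ARAF and BRAF, and MAP2K1, which encodes MEK1. They were chosen by symbol, as all probe sets that the platform annotation assigns to these names. That gave 10 probe sets for 6 genes, out of 54675 probe sets and 19775 named genes in all, while NRAS and BRAF were not analysed here. RRAS, ARAF and MAP2K1 are reported targets of the microRNA miR-34a. Total RNA came from NCI-H1299, a line established from a human lung cancer of the non-small cell type, on 3 arrays: mock, miR-34a and ghR-34a. Both small RNAs were used at 25 nM for 48 hours, and the labels do not say how the mock cells were treated. The labels call ghR-34a only by this name. Cells given an unrelated small RNA were not analysed here, so a response to any transfected RNA cannot be told apart from one to these 2 RNAs.

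RAS proteins are membrane-bound switches that are active when they hold GTP. Active RAS recruits RAF kinases, RAF phosphorylates MEK, and MEK phosphorylates ERK, the kinase that carries growth factor signals to the nucleus. In lung cancer this chain is a common site of activating mutations. A microRNA guides an Argonaute protein to messenger RNAs, mainly through pairing of its seed, bases 2 to 8, with the 3′ untranslated region of the target, and can lower the level of that RNA.

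The mature human miR-34a-5p is shown because the study is built on it, together with the other mature microRNAs in the RefSeq table used that carry the same seed. Capitals mark the seed. Whether the transfected RNA had exactly the first sequence is not stated in the sources used here, and no sequence of ghR-34a was used.
hsa-miR-34a-5p: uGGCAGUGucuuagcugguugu
hsa-miR-449a: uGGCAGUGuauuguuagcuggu
hsa-miR-449b-5p: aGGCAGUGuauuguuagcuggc
The miR-34a-5p sequence lies at chr1:9151735-9151756 on the minus strand (RefSeq, GRCh38.p14). A perfect seed match in a target RNA reads CACUGCC. Beyond the seed, miR-449a and miR-449b-5p differ from miR-34a-5p. Over the whole length, seed included, 15 and 13 of 22 bases are identical position by position. MicroRNAs absent from the RefSeq table used are not shown. The target regions of the 6 genes were not searched for this match, because no transcript sequence was used.

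RRAS and MAP2K1 were lower in both transfectant arrays, RRAS2 and 1 probe set of ARAF were moderately lower in both, and HRAS and MRAS stayed near mock. All differences are of log2(signal + 32), as array minus array, and folds are on that scale, which understates changes at low signal. There was 1 array per condition, so no spread between cultures could be estimated and no gene was tested. In bulk RNA, fewer cells with a transcript and less of it per cell cannot be told apart. As yardsticks of technical spread, 40 spike-in control probe sets had an SD of the log2 difference of 0.13 for miR-34a minus mock and 0.16 for ghR-34a minus mock. Across 6026 genes with over 1 probe set above the signal filter, probe sets of the same gene differed from each other with an SD of 0.27 and 0.24. The filter kept the 11917 genes whose mean signal was at least 68.6, and all 6 measured genes passed it. The line's epithelial keratins KRT8 and KRT18 and the mesenchymal filament gene VIM had signals of 2524 or more on all 3 arrays. Of 5 mesenchymal markers, FN1 and COL1A1 passed the filter too, but COL1A2 (38.3, 64.0 and 72.8) and PDGFRB (5.19, 9.39 and 2.76) did not. EPCAM, CDH1 and the leukocyte gene PTPRC were at 32.5 or less. The lung lineage gene NKX2-1, at 36.5 in mock, 69.5 with miR-34a and 81.5 with ghR-34a, had a mean below the filter. The surfactant genes SFTPB (203, 192 and 168) and SFTPC (98.9, 161 and 96.2) and the T cell gene CD3E (113, 70.0 and 57.8) passed it at low signals, so that 2 of 4 measured lung epithelial markers and 1 of 3 leukocyte markers did. Their part in the results was not tested.

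RRAS encodes a GTPase of the R-RAS subfamily, known for supporting integrin-mediated adhesion. Its single probe set had a signal of 1663 in mock, 534 with miR-34a and 560 with ghR-34a. Both transfectant arrays were thus at about the same low level, 32.1% and 33.7% of mock. The log2 differences were -1.58 and -1.52, or 2.99-fold and 2.86-fold lower. Counting RRAS itself, 10 of the 11917 genes were as far below mock or further with miR-34a, and 12 with ghR-34a.

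RRAS2, also called TC21, encodes the closest relative of RRAS, with transforming activity of its own. It had 3 probe sets, all lower in both transfectant arrays. The probe set 212590_at went from 2084 in mock to 1465 with miR-34a and 1467 with ghR-34a. For 212589_at the signals were 1648, 1132 and 1058, and for 208456_s_at they were 1277, 805 and 813. In every case mock was the highest array and the transfectant arrays lay close together, with miR-34a at 63.0 to 70.3% of mock and ghR-34a at 63.6 to 70.4%. The 3 log2 differences from mock were -0.50, -0.53 and -0.65 with miR-34a, and -0.50, -0.62 and -0.63 with ghR-34a. These are shifts of about 1.41- to 1.56-fold, which lie further from 0 than either yardstick SD but short of 2-fold. The probe sets of a gene share the same RNA and array, so they are no replicates of the condition.

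MRAS, the third member of the R-RAS subfamily, is known for joining SHOC2 and a protein phosphatase in a complex that helps activate RAF. Its stronger probe set, 225185_at, had signals of 391 in mock, 394 with miR-34a and 401 with ghR-34a, so the 3 arrays were nearly equal. Its log2 differences of 0.012 and 0.034 were smaller than the spike-in SDs. The weaker probe set, 206538_at, stood at 71.4, 60.8 and 98.2, near the level of the filter, and differed in opposite directions (-0.16 and 0.33).

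HRAS encodes a classical RAS protein that binds RAF directly. Its probe set had signals of 1181 in mock, 1223 with miR-34a and 1373 with ghR-34a. Mock and miR-34a were close (0.049), and ghR-34a was 1.16-fold above mock (0.21), just over the spike-in SD. The difference of RRAS from mock minus that of HRAS was -1.63 on the miR-34a array and -1.73 on the ghR-34a array. The GTPase genes thus differed unequally from mock, in the same order on both transfectant arrays: RRAS lowest, then RRAS2, with MRAS and HRAS close to 0.

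**Figure D1:**
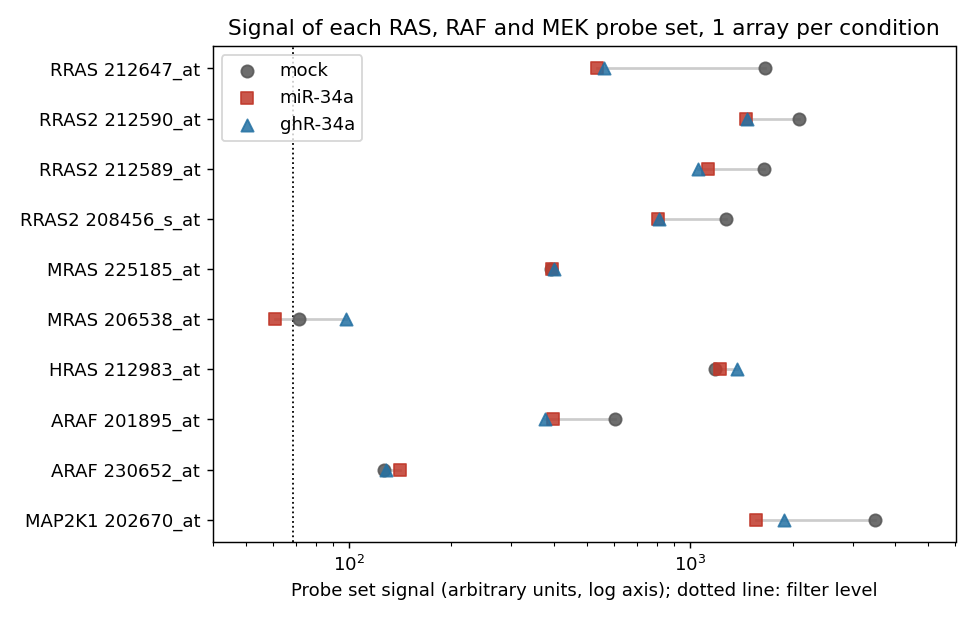
Signal of the 10 probe sets (rows) on a log axis in arbitrary units, with 1 marker for each of the 3 arrays and a dotted line at the filter level of 68.6. Mock lies to the right of both transfectant arrays for RRAS, all 3 RRAS2 probe sets, ARAF 201895_at and MAP2K1, while MRAS 225185_at lies between 391 and 401 on all arrays.

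ARAF encodes one of the RAF kinases that pass the signal from RAS to MEK. Its stronger probe set, 201895_at, had a signal of 602 in mock, 398 with miR-34a and 376 with ghR-34a. Both transfectant arrays were below mock, at 66.1% and 62.5% of it, with log2 differences of -0.56 and -0.63. The second probe set, 230652_at, did not share this. Its signals were 127, 142 and 129, and its differences were 0.12 and 0.013, below the spike-in SDs. With both probe sets averaged, ARAF was at -0.22 and -0.31. The lower level of ARAF therefore rests on 1 of its 2 probe sets, and why they disagree was not tested.

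MAP2K1 encodes MEK1, which phosphorylates and activates ERK1 and ERK2. Its single probe set had a signal of 3478 in mock, 1563 with miR-34a and 1884 with ghR-34a. Mock was highest, and miR-34a was lower than ghR-34a. The log2 differences were -1.14 with miR-34a, 2.2-fold lower, and -0.87 with ghR-34a, 1.83-fold lower. Including MAP2K1, 74 of the 11917 genes were as low or lower with miR-34a and 122 with ghR-34a.

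MAP2K2 encodes MEK2, the paralog of MEK1 with the same substrates, and was used for comparison within the same arrays. Its main probe set had signals of 3445 in mock, 3500 with miR-34a and 3427 with ghR-34a, nearly equal on all 3. The log2 differences were 0.022 and -0.0078. Under the alternative scalings, probe set averaging and pseudocounts, those with miR-34a lay between -0.038 and 0.031 and those with ghR-34a between -0.13 and 0.012, so their sign is not fixed. The difference of MAP2K1 from mock minus that of MAP2K2 was -1.16 with miR-34a and -0.87 with ghR-34a. The genes of the MEK pair therefore differed unequally from mock, as RRAS did from HRAS.

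**Figure D2:**
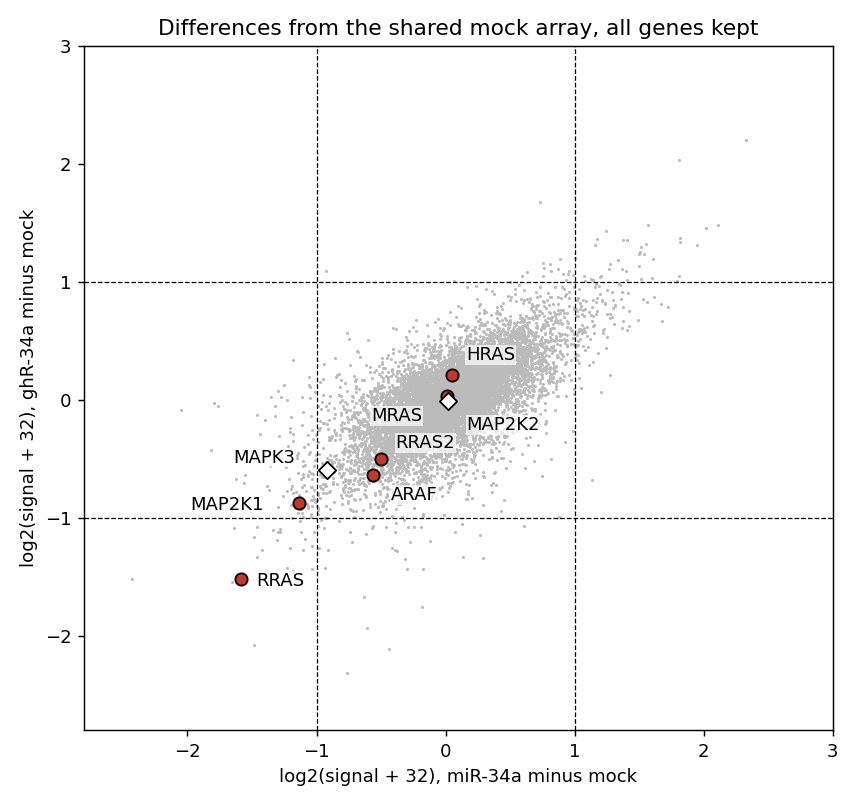
Log2 difference from mock with miR-34a (x axis) and ghR-34a (y axis) for the 11917 genes above the filter (grey points), with the 6 measured RAS, RAF and MEK genes as red circles and MAP2K2 and MAPK3 as white diamonds. Dashed lines mark 2-fold. RRAS lies beyond 2-fold on both axes and MAP2K1 on the x axis. Both axes use the same mock array, so points near the diagonal are partly a result of the design.

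Read against all genes, RRAS and MAP2K1, 2 of 6 genes, lay 2-fold or more below mock with miR-34a, where 1.14% of the 11917 genes did. RRAS, 1 of 6, did so with ghR-34a, where 0.571% of genes did. None of the 6 lay 2-fold or more above mock in either array, against 1.22% and 0.453% of genes. At 1.5-fold, the count of lower genes was 2 of 6 with miR-34a, against 5.31% of genes, and 3 of 6 with ghR-34a (RRAS, ARAF and MAP2K1), against 4.06%. None was 1.5-fold higher, against 6.66% and 3.19% of genes. The median difference of the 6 genes was -0.53 with miR-34a and -0.57 with ghR-34a, and that of all genes was 0.038 and 0.0096. Since RRAS, ARAF and MAP2K1 were listed as reported targets and with earlier results of these arrays known, these counts are a description of the list.

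The RNAs miR-34a and ghR-34a were compared directly at the same dose and time, as 1 pair. Differences of ghR-34a minus miR-34a were 0.065 for RRAS, 0.0026 for RRAS2, 0.022 for MRAS, 0.16 for HRAS, -0.074 for ARAF and 0.26 for MAP2K1. The widest, that of MAP2K1, was a 1.2-fold higher signal with ghR-34a. It was about the size of the SD between probe sets of a gene in this comparison (0.25) and over the spike-in SD (0.13). No gene of the 6 reached 2-fold or 1.5-fold in either direction. Of the 11917 genes, 0.344% were 2-fold or more below the miR-34a level with ghR-34a and 0.327% as far above it, and 3.27% and 2.24% passed 1.5-fold. With 1 array each, no interval of the difference can be given, so similar levels do not show that the RNAs act alike on these genes.

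The other genes of the pathway were taken from 7 lists by role, with 108 genes, of which 96 were measured and 75 passed the filter. As a whole they showed no common shift: 35 of 75 were below mock with miR-34a and 37 with ghR-34a, and their medians were 0.029 and 0.0034. For comparison, 44.8% and 48.2% of all genes were below mock. Past 2-fold there were 2 genes with miR-34a, RASSF5 (lower) and RASL10A (higher), and 1 with ghR-34a, RASSF5 (lower). Of all genes, 1.14% were 2-fold lower and 1.22% higher with miR-34a, and 0.571% and 0.453% with ghR-34a.

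Downstream of MEK, MAPK3 encodes ERK1. Its 1 probe set, an _x_at set, whose probes may also bind related transcripts, had a signal of 455 in mock, 226 with miR-34a and 291 with ghR-34a. Mock was again the highest array. The log2 differences of -0.92 and -0.59 were short of 2-fold, though with a pseudocount of 1 the first was -1.01. Of the 5 kinases of the cascade and MEK relatives that passed the filter, the others were nearer to mock on their main probe sets. MAP2K4, a kinase of the JNK pathway, was at 0.21 and 0.044, and MAP2K5, the kinase of ERK5, at -0.088 and 0.199. The other MAP2K4 probe set was of opposite sign in both arrays, as were both other MAP2K5 probe sets with ghR-34a. The scaffold gene KSR1, which holds RAF and MEK together, was at -0.38 and -0.19 from a mock signal of 125. Both other KSR1 probe sets were of opposite sign with miR-34a (median 0.32) and of the same sign with ghR-34a (median -0.87).

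Among 14 further RAS family genes above the filter, 8 were above mock with miR-34a and 9 with ghR-34a (medians 0.13 and 0.096). RAP2C, a RAP GTPase, had signals of 2841, 4688 and 3533 (0.72 and 0.31). RIT1, a RAS relative that can activate RAF, had 739, 1167 and 869 (0.64 and 0.23). On these probe sets both stood above mock, unlike RRAS and RRAS2, and further with miR-34a than with ghR-34a, although the median of the 3 other RIT1 probe sets with ghR-34a was -0.039. RASL10A was at 1.29 and 0.702, but from a mock signal of only 84.6, and was short of 2-fold with a pseudocount of 100 (0.93). NKIRAS2, known for restraining NF-kappaB, was lower, at -0.61 and -0.27.

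The regulators that load and unload RAS and passed the filter were near mock on their main probe sets. They were 2 of 8 listed exchange factors and 3 of 10 listed GTPase-activating proteins. SOS1 and SOS2, which exchange GDP for GTP on RAS, were the 2 exchange factors above the filter, at 0.18 and 0.16 with miR-34a and -0.032 and -0.17 with ghR-34a. Among GTPase-activating proteins, which switch RAS off, RASA2 (0.094 and 0.073), RASA3 (0.22 and -0.033) and RASAL2 (-0.047 and 0.022) passed the filter. With miR-34a the medians of other probe sets were 0.33 for SOS1, 0.35 for RASA2 and 0.41 for RASA3. Those of SOS2 and RASAL2 were -0.018 and -0.080. None of these 5 genes reached 1.5-fold on its main probe set. Of all genes, 5.31% were 1.5-fold lower and 6.66% higher with miR-34a, and 4.06% and 3.19% with ghR-34a.

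Adaptors, scaffolds and inhibitors were also centred on mock, with 12 of 25 genes below it with miR-34a and 11 with ghR-34a (medians 0.016 and 0.026). SPRED3, of a family that inhibits RAF activation, had signals of 297, 532 and 364 (0.78 and 0.27). CNKSR2, a scaffold gene, was at -0.61 and -0.29, and the adaptor gene GAB1 at -0.40 and -0.33. With all probe sets averaged, those below the filter included, CNKSR2 was at -0.16 and -0.051, and GAB1 at 0.038 and 0.075. The other CNKSR2 probe set above the filter was below mock in both arrays, at -0.14 and -0.42. For GAB1 the medians of the other probe sets above the filter were -0.17 and -0.017. PEBP1, which encodes an inhibitor of the RAF to MEK step, was at 0.32 and -0.0039.

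Of the 13 genes for lipid modification and trafficking of RAS, which set its place at membranes, none passed 1.5-fold against mock. The shares of all genes were 5.31% lower and 6.66% higher with miR-34a, and 4.06% and 3.19% with ghR-34a. LYPLA2, which encodes a depalmitoylating thioesterase, was above mock in both arrays (1857, 2640 and 2730, or 0.50 and 0.55). FNTA, the alpha subunit shared by both enzymes that attach prenyl lipids to RAS and its relatives, was at 0.26 and 0.15. PGGT1B, the beta subunit of one of these enzymes, was at -0.27 and 0.48, and RCE1, the protease that trims farnesylated RAS, at 0.44 and -0.49. These last 2 genes lay on opposite sides of mock.

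Other RAS effectors had the lowest medians of the 7 lists, at -0.28 with miR-34a and -0.34 with ghR-34a, with 8 and 11 of 13 genes below mock. Of all genes, 44.8% and 48.2% were below mock. These counts use the main probe set of each gene, and probe sets disagreed. The medians are the values of PIK3CB with miR-34a and TIAM1 with ghR-34a. The other probe set of each was above mock there (0.023 and 0.49). That of RALGDS, whose main probe set was at -0.032 and -0.20, was above mock in both arrays, at 0.88 and 0.13. The other probe set of PLCE1 was below mock in both arrays. RASSF5, an effector with tumour suppressor activity, had signals of 195 in mock, 78.4 with miR-34a and 51.8 with ghR-34a (-1.04 and -1.44), the last below the filter level. No other RASSF5 probe set passed the filter. Averaged with those below it, RASSF5 was at -0.53 and -0.81. RASSF1 (-0.40 and -0.62) and RIN1 (-0.50 and -0.62), an effector that acts on RAB5, were lower too. RGL2, an exchange factor for RAL, was higher (0.59 and 0.40).

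For RRAS, ARAF and MAP2K1 the genes with the most similar pattern were found by the Euclidean distance between pairs of log2 differences from mock, over 3 arrays. Nearest to RRAS were MET at a distance of 0.027 (-1.58 and -1.54), TPD52 at 0.077 (-1.65 and -1.54) and NUP210 at 0.18 (-1.41 and -1.58). For ARAF, at its moderate level, the nearest were CDC42SE2 (0.027), GABRQ (0.03) and TRIM69 (0.031). Nearest to MAP2K1 were NXPH2 (0.023), PEG3 (0.036) and SH3GL1 (0.039). SH3GL1 had signals of 1424, 635 and 784, so that like MAP2K1 it was lower with miR-34a than with ghR-34a. NXPH2 had a miR-34a signal of 63.6, below the filter level. With all probe sets averaged, those below the filter included, NXPH2 (-0.44), NUP210 (-0.80) and PEG3 (-0.82) were short of 2-fold with miR-34a. In that average TRIM69 was above mock with ghR-34a (0.14).

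Apart from ARAF, the genes that lay below mock moved little between processing choices. The filters cannot change the value of a kept gene. RRAS and MAP2K1 have a single probe set each, neither _s_at nor _x_at, so only the pseudocounts and scalings could move them. Over 8 alternatives of pseudocount, filter, scaling and probe set choice, RRAS lay between -1.64 and -1.47 with miR-34a and between -1.57 and -1.42 with ghR-34a. MAP2K1 lay between -1.2 and -1.11 and between -0.88 and -0.85, so in each alternative it passed 2-fold with miR-34a and missed it with ghR-34a. RRAS2 lay between -0.56 and -0.48 and between -0.58 and -0.48. MRAS and HRAS changed sign with miR-34a in 3 of 7 and 1 of 8 alternatives, with lowest values of -0.072 and -0.011.

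**Figure D3:**
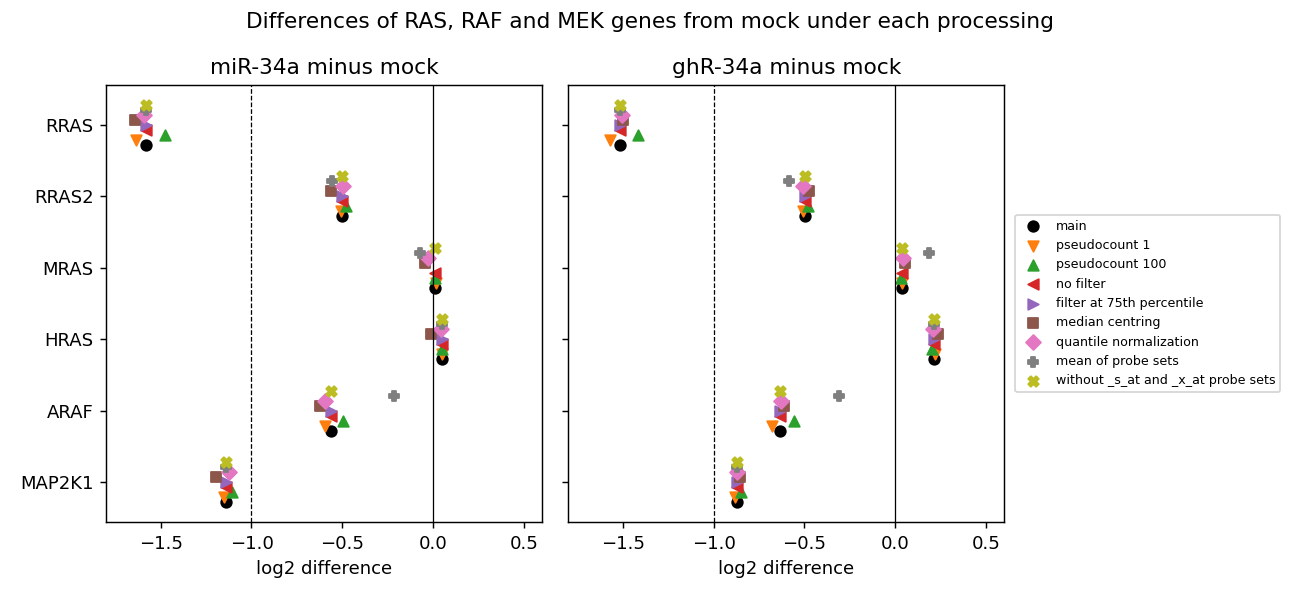
Log2 difference from mock of the 6 genes with miR-34a (left) and ghR-34a (right) under the main processing (black) and 8 alternatives (coloured markers). The dashed line marks 2-fold lower. Most markers of a gene overlap, and the widest spread is that of ARAF, where averaging both probe sets gives -0.22 and -0.31. The filters cannot move a marker.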

How the data were processed

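The authors deposited a linear intensity, the probe set signal, for 54675 probe sets on each of 3 arrays. Per the submitters' processing notes it came from Affymetrix Expression Console, whose version and settings are not given in the sources used here, and no detection calls were used. The 2% trimmed mean was 500.1 on every array, so the deposited values carry a common scaling, and the median signals were 70.6 (mock), 74.98 (miR-34a) and 69.2 (ghR-34a). Each array was made from 250 ng of total RNA, per the labels. The number of arrays limits the precision. The log2 of the deposited intensity plus 32 was taken, without rescaling the arrays. Leaving out 62 control probe sets, 41091 had 1 gene symbol in the platform annotation, 1801 named several genes and were left out, and 11721 have no name here. The probe set with the highest mean of log2(signal + 32) stood for a gene, and genes were kept where that mean reached the median of all probe sets. Genes were counted at a 2-fold rule. Markers, 7 pathway lists and named genes (up to 4 of each list with the largest difference, any past 2-fold, and the 3 nearest to RRAS, ARAF and MAP2K1) followed fixed rules, but the members and lists were chosen with earlier results of these data known. Some listed genes were not analysed here. Alternatives were pseudocounts of 1 and 100, no filter and a filter at the 75th percentile, median centring, quantile normalization, averaged probe sets, no _s_at and _x_at probe sets, and 1.5-fold and 3-fold rules. Averages took in all probe sets of a gene, also those below the filter. Coordinates of the genes are not given, since no build is named. Python 3.11.15, numpy 2.4.6, pandas 2.3.3 and scipy 1.17.1 were used.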

Additional observations from a re-analysis of the deposited data

Results flagged for a closer look

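Only probe sets of the RAS, RAF and MEK genes, and main probe sets of pathway genes named by the rule, were scanned. For 4 of these the difference from mock had opposite signs with miR-34a and ghR-34a, each larger than the spike-in SD. In no case was the difference between the RNAs tested. Outside the scan, the RAS effectors RGL1 (0.56 and -0.26), RGL3 (0.45 and -0.36) and TIAM1 (0.31 and -0.34) met the same rule. The weaker MRAS probe set, 206538_at, was at -0.16 with miR-34a and 0.33 with ghR-34a, from signals of 60.8 to 98.2. SOS2 was at 0.16 and -0.17, and its other probe sets, 2 in number, were of opposite sign with ghR-34a. PGGT1B was at -0.27 and 0.48, and both of its other probe sets shared these signs (medians -0.59 and 0.13). RCE1 was at 0.44 and -0.49, from 1 probe set above the filter with signals of 133, 193 and 85.7.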

How the results depend on the processing

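No paired analysis was possible because there was 1 array per condition, and for the same reason no replicate could be left out. The 2 genes of the RAS, RAF and MEK list past 2-fold with miR-34a, the 1 with ghR-34a and the 0 between the RNAs had the same counts under all 8 alternatives of pseudocount, filter, scaling and probe set. For RRAS and MAP2K1, the genes counted, only the pseudocounts and scalings could change the value. By construction, the 3-fold rule left 0 and 0 genes against mock, and the 1.5-fold rule gave 3 with ghR-34a. In the pathway lists, the 2 genes with miR-34a and the 1 with ghR-34a past 2-fold became 0 and 0 with a pseudocount of 100, with the filter at the 75th percentile and with the 3-fold rule. Averaged probe sets gave 1 and 0, no filter gave 4 and 3, and the 1.5-fold rule gave 9 and 5. Between the RNAs, 0 genes became 2 with a pseudocount of 1, 3 without a filter and 6 with the 1.5-fold rule. Over all genes, the 136 lower and 145 higher with miR-34a ranged from 74 and 53 to 278 and 380 with the 2-fold rule kept, and the 68 and 54 with ghR-34a from 28 and 19 to 228 and 215. Median centring moved the split with miR-34a to 172 lower and 112 higher, and with ghR-34a against miR-34a from 41 and 39 to 27 and 54. Alternative values of single genes named include those under the filters and fold rules, which leave a gene's value as it is. Of all these values, 76 of 1158 moved by over 1 spike-in SD and none past 2-fold changed sign. The cause of these shifts was not tested. Signals near 68.6 are the least certain.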

Other observations

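The keratin genes KRT8 and KRT18, which encode the paired filaments of simple epithelia, were higher in both transfectant arrays. KRT8 had signals of 2524 in mock, 4236 with miR-34a and 3203 with ghR-34a, and KRT18 had 17498, 23158 and 20459. The other epithelial markers, KRT19, EPCAM and CDH1, had means below the filter, and none was higher in both arrays. The summed signal of 3 measured leukocyte markers was 147, 86.0 and 108, and that of 5 endothelial markers 191, 241 and 225. Only CD3E and PECAM1 among them passed the filter. PECAM1 had signals of 159, 119 and 168, and VWF, below the filter, had 4.41, 61.6 and 9.99. The mesenchymal sum was 35106, 36698 and 32987, most of it from VIM (34003, 35416 and 31979). The lung epithelial sum was 358, 424 and 348.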
